A study of Mus musculus with 30 samples.

Results

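The genes described here encode the plasma cascades that the liver secretes: complement, the coagulation and fibrinolysis factors, and the serpins, the serine protease inhibitors that restrain both. They were taken as 35 named complement and coagulation genes together with each gene of the array whose symbol starts with Serpin, 84 genes in all. Of these, 83 had a probe, 34 from the named list and 49 serpins, with 110 of the 25697 probes and 83 of the 16593 gene symbols of the array. C3 was not analysed here. C1s is listed on the array as C1s1 and C5 as Hc.

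Male C57BL/6J mice were placed at 28 weeks of age on the AIN-93G standard diet ad libitum (SD), on the same diet with SRT2104 at 1.33 g per kg of chow, about 100 mg per kg of bodyweight per day, or on calorie restriction of 40% (CR). SRT2104 is a drug-like compound made to raise the activity of SIRT1, an enzyme that removes acetyl groups from proteins. Liver and skeletal muscle RNA was hybridised to 30 Illumina bead arrays, with 5 arrays per diet in each tissue. The labels give 41 weeks of age and 14 weeks of diet for CR and describe the SD and SRT2104 diets as lifelong, whereas the design text gives a selection of 5 mice per group after 41 weeks, so that equal age at sampling rests on the design text and not on the labels. The labels name no altered allele.

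The cascades work by proteolysis: a recognition molecule or a contact surface activates a first protease, each protease cuts the next, and the reaction ends in a membrane pore for complement or in a fibrin clot for coagulation. Hepatocytes make most of these proteins, and serpins stop the proteases by trapping them in an inactive complex. Several members of the serpin family no longer inhibit proteases and carry hormones instead, as corticosteroid-binding globulin does.

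The match of tissue and label held for both tissues, with an exception on single arrays. A list of 14 probed hepatocyte markers averaged 13.69 to 14.57 log2 signal on the 15 liver arrays and 6.85 to 8.05 on 14 muscle arrays, but 12.72 on the muscle array of SRT2104 replicate 3. The skeletal muscle fibre markers averaged 13.32 to 14.57 in muscle and 6.85 to 7.75 on 14 liver arrays, but 10.71 on the liver array of CR replicate 1. Results that rest on the first of these arrays are given with and without it, and 11 of the 30 liver differences called below were called with each of the 15 liver arrays left out in turn and under each of the other settings tried. Here a log2 signal is the log2 of the bead brightness of the brightest detected probe of a gene, after each array was brought to the same mean and spread, and calls refer to that probe. A difference of 1 on this scale is a doubling.

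In liver, 51 of the 83 genes were detected at p under 0.02 on at least 5 of the 15 arrays, and 50 of these were detected on all 15. They comprised 32 of the 34 named genes and 19 of the 49 serpins. Of the 32 genes that were not kept, 27 were detected on no array, and 24 belonged to serpin clade B, the intracellular serpins, of which only Serpinb6a was kept among the 25 probed. C1ra and Fgb, which encode a complement protease and the fibrinogen beta chain, were likewise detected on no liver array with the probes of this platform.

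The detected members lay among the brightest probes of the liver arrays. The mean raw signal was above 10000 for 22 of the 51 genes. Serpina1c, one of the mouse genes for alpha-1-antitrypsin, averaged 15.80 log2 signal over the 15 liver arrays, and Kng1, the gene for kininogen, averaged 15.79. Among the other groups by role, the brightest were Cfi, the factor that cleaves C3b and C4b, at 14.10, C8g of the terminal complex at 14.47, C4b of the classical pathway at 13.51, Fga, the fibrinogen alpha chain, at 15.58, F2, which is prothrombin, at 13.57, and Vtn, the adhesive plasma protein vitronectin, at 14.99. Brightness depends on the probe as well as on the amount of RNA, so these levels do not rank the genes by their abundance. Within a diet, the SD over replicates was largest for Serpina4-ps1 at 0.49, Serpina1e at 0.48 and Serpina3n at 0.45, and smallest for Mbl1 and Masp2 at 0.09.

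The sequences just upstream of the alpha-1-antitrypsin genes are shown because these 5 neighbouring copies carry much of the serpin signal. Array probes may not tell the copies apart, which was not tested. The sequences shown lie before the gene starts, so their likeness does not bear on the probes. The windows of 60 bases lie before the RefSeq start of each gene on the minus strand of chromosome 12 in build GRCm38.p6, at chr12:103863625-103863684 for Serpina1a, chr12:103773634-103773693 for Serpina1d and chr12:103956960-103957019 for Serpina1e. The windows of Serpina1b and Serpina1c were identical to that of Serpina1a over 60 of 60 bases, and the lowest identity between any pair was 91.7%. Capitals mark GTTAAT, an arm of the site bound by hepatocyte nuclear factor 1, a regulator of hepatocyte genes.
Serpina1a: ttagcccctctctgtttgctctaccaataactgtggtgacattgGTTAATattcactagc
Serpina1d: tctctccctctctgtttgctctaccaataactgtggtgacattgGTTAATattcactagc
Serpina1e: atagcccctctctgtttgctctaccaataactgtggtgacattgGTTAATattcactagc

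Of the 51 genes kept in liver, 39 were matched to a RefSeq promoter, and the 250 bases before the start were searched on both strands. GTTAAT was present in 13 of the 39 (33.3%), 5 of them the alpha-1-antitrypsin copies, against 6.43% of 32851 promoters of the same length. The C/EBP letters TTGCNNAA were present in 11 (28.2%) against 9.56%, and the D-box letters TTANGTAA, which the clock-controlled factor DBP and its relatives bind, in 1 (2.56%) against 2.06%. No matches of different motifs overlapped in these genes. The 150 bases before the start of F13b (chr1:139501557-139501706, plus strand) and C8a (chr4:104876399-104876548, minus strand) are printed because both genes differed between CR and SRT2104 and both hold the letters of hepatocyte nuclear factor 1, in F13b as the reverse complement. Klkb1, Serpina12 and Serpind1, which also differed between these diets, do not hold these letters in the bases searched. Capitals mark these letters and, first in F13b, the D-box.
F13b: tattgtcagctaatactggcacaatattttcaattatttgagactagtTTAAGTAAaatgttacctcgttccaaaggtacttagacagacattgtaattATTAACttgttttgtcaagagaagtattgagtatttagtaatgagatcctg
C8a: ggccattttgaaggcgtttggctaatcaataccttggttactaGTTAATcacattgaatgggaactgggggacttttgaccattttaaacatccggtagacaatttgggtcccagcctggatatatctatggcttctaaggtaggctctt

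CR was compared with SD in liver to ask which of these genes respond to lower food intake. Serpina6, which encodes corticosteroid-binding globulin, was 2.24-fold higher on CR, and Serpina4-ps1, a serpin annotated as a pseudogene, was 2.31-fold higher. Cfb, the protease of the alternative complement pathway, F13b, the carrier subunit of the fibrin crosslinking factor XIII, and Serpind1, the thrombin inhibitor heparin cofactor II, were 1.19-fold to 1.4-fold higher. Klkb1, which is plasma prekallikrein, Mbl1, a mannose-binding lectin, C9, the pore-forming unit of complement, and Serpina3n, an acute phase serpin, were 1.22-fold to 1.6-fold lower. Altogether 12 of 51 members passed an adjusted p of 0.05 (23.5%), against 27.6% of all 7725 genes tested, so the share of members called was close to that of liver genes at large. By direction, 8 members were higher, where 14.0% of all genes were higher, and 4 were lower, where 13.6% were lower. In bulk tissue, fewer cells of a type and less RNA per cell cannot be told apart. The median difference over the 51 members was 0.03, beside 0.00 over all genes tested. Without CR replicate 1, the liver array with muscle fibre signal, 10 members were called for CR against SD and 12 for SRT2104 against CR.

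**Figure D1:**
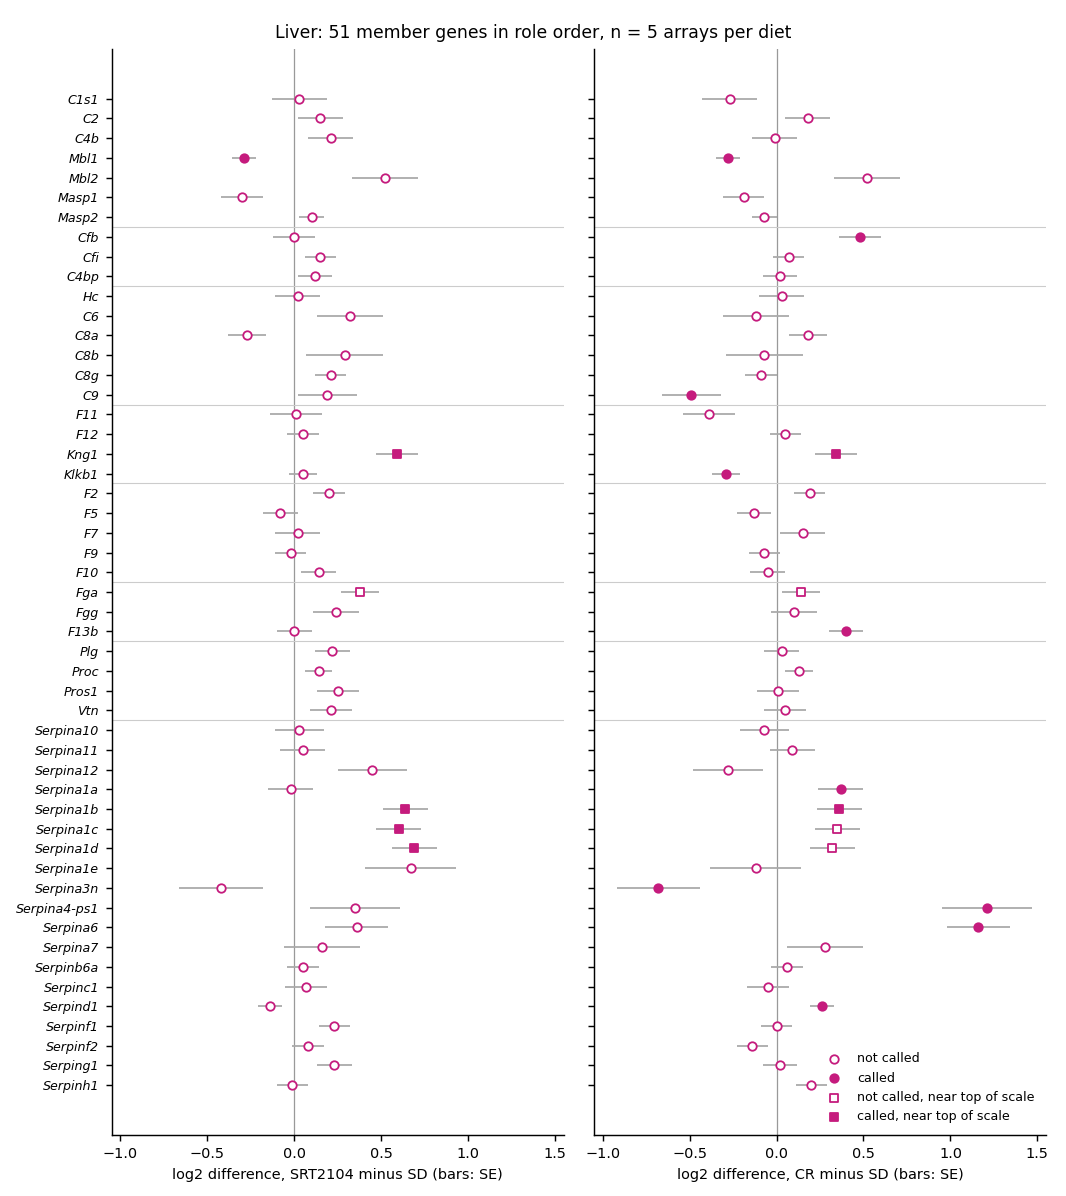
Log2 difference (x axis) of each of the 51 member genes in liver, SRT2104 minus SD on the left and CR minus SD on the right, with bars for the SE. Genes run in role order, with grey lines between roles, filled points passed an adjusted p of 0.05, and squares mark probes near the top of the signal scale. Serpina6 and Serpina4-ps1 stand farthest to the right for CR, at 1.16 and 1.21, and 4 of the 5 filled points for SRT2104 are squares.

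The hormone-carrying Serpina6 set the CR livers apart. It read 12.19, 11.11, 11.33, 10.85 and 11.66 log2 signal in the SD livers, 11.84, 12.12, 11.78, 11.52 and 11.67 in the SRT2104 livers, and 12.48, 12.68, 12.47, 12.64 and 12.67 in the CR livers. All 5 CR livers were above all others, the SD livers spread over the widest range, and the SRT2104 livers lay within that range. The difference between CR and SD was 1.16 ± 0.18 (SE, n = 5 per diet, limma adjusted p = 0.000259), and that between SRT2104 and CR was -0.80 ± 0.18 (adjusted p = 0.00395). Between SRT2104 and SD the difference of 0.36 ± 0.18 was not called (adjusted p = 0.298). The thyroxine carrier Serpina7, thyroxine-binding globulin, differed by 0.28 ± 0.22 between CR and SD and passed in no comparison (adjusted p = 0.37 for CR).

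Serpina4-ps1, though dim beside its neighbours, was the other large difference. Its log2 signals were 8.42, 9.13, 8.74, 9.27 and 8.51 on SD, 9.0, 8.63, 8.85, 9.43 and 9.90 on SRT2104, and 10.57, 9.59, 10.24, 9.27 and 10.46 on CR. CR replicate 4 equalled the highest SD liver, and the other 4 CR livers were above all SD livers. CR exceeded SD by 1.21 ± 0.26 (adjusted p = 0.00306) and SRT2104 lay below CR by 0.86 ± 0.26 (-0.86, adjusted p = 0.0219). The latter was not called without SRT2104 replicate 2 or 3 or CR replicate 1, 3 or 5, with adjusted p up to 0.0625.

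Among complement genes, the alternative pathway protease Cfb was higher on CR than on either other diet. Cfb read 11.97, 11.90, 11.27, 12 and 11.73 on SD, 11.88, 11.64, 11.94, 11.66 and 11.78 on SRT2104, and 12.10, 12.24, 12.18, 12.44 and 12.34 on CR. The CR livers did not overlap the others, at 0.48 ± 0.12 above SD (adjusted p = 0.00679) and with SRT2104 at -0.48 ± 0.12 from CR (adjusted p = 0.00669). Cfi, and C4bp, the C4b-binding protein that regulates the convertase of the classical and lectin pathways, did not pass in any comparison of the diets in liver.

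The lectin pathway moved in its recognition molecule Mbl1, which was lower on both diets than on SD. Its signals were 12.47, 12.41, 12.43, 12.40 and 12.28 on SD, 12.21, 12.06, 12.06, 12.13 and 12.07 on SRT2104, and 12.04, 12.19, 12.24, 11.94 and 12.15 on CR. Every SD liver was above every other liver, by a small margin. The difference from SD was -0.28 ± 0.07 for CR (1.22-fold, adjusted p = 0.00592) and -0.29 ± 0.07 for SRT2104 (adjusted p = 0.0282), and the 2 comparisons share the SD livers. The call for SRT2104 was lost without SD replicate 1 or 2 or SRT2104 replicate 2, 3 or 5, at adjusted p up to 0.0714. It was also lost under 6 of the 11 other settings tried, among them neqc, a normalization of the raw signals, and the deposited scores, at adjusted p up to 0.0649 and with differences of -0.44 to -0.24 over the 11. Its paralog Mbl2, a lectin of like function, had differences of 0.52 ± 0.19 for both diets, neither called (adjusted p = 0.053 for CR and 0.137 for SRT2104). The lectin-associated proteases Masp1 and Masp2 and the classical pathway genes C1s1, C2 and C4b passed in no comparison either on their brightest probes. A dimmer kept probe of Masp2 gave 0.29 ± 0.09 for SRT2104 over CR (adjusted p = 0.0317), without overlap.

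The terminal complement genes did not move as a block. C9 read 13.42, 14.09, 14.05, 14.29 and 13.58 on SD, 14.07, 14.01, 14.43, 14.24 and 13.61 on SRT2104, and 13.56, 13.26, 13.65, 13.14 and 13.39 on CR. CR overlapped both other diets through their lowest livers, and the difference was -0.49 ± 0.17 from SD (adjusted p = 0.0391) and 0.67 ± 0.17 for SRT2104 over CR (adjusted p = 0.00661). The call against SD was lost without SD replicate 2, 3 or 4 or CR replicate 2, 4 or 5, with adjusted p up to 0.0977, and the other kept probes of C9 differed by 0.06 ± 0.15 and -0.14 ± 0.09 between CR and SD. C8a, a chain of the C8 complex, lay lower on SRT2104 (11.64, 11.49, 11.75, 11.69 and 11.60) than on CR (12.14, 12.01, 12.10, 11.84 and 12.33), without overlap, by 0.45 ± 0.11 (-0.45, adjusted p = 0.0071), with SD between them at a mean of 11.90. C8g, the gamma chain of the same complex, differed the other way, with SRT2104 above CR by 0.30 ± 0.09 (adjusted p = 0.0253) and with overlapping livers. Without SRT2104 replicate 3 or 5 or CR replicate 2, C8g was not called (adjusted p up to 0.065). Hc, C6 and C8b passed in no comparison on their brightest probes. The dimmer kept probe of C6 gave 0.81 ± 0.23 for SRT2104 over CR (adjusted p = 0.0163), with overlapping livers.

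**Figure D2:**
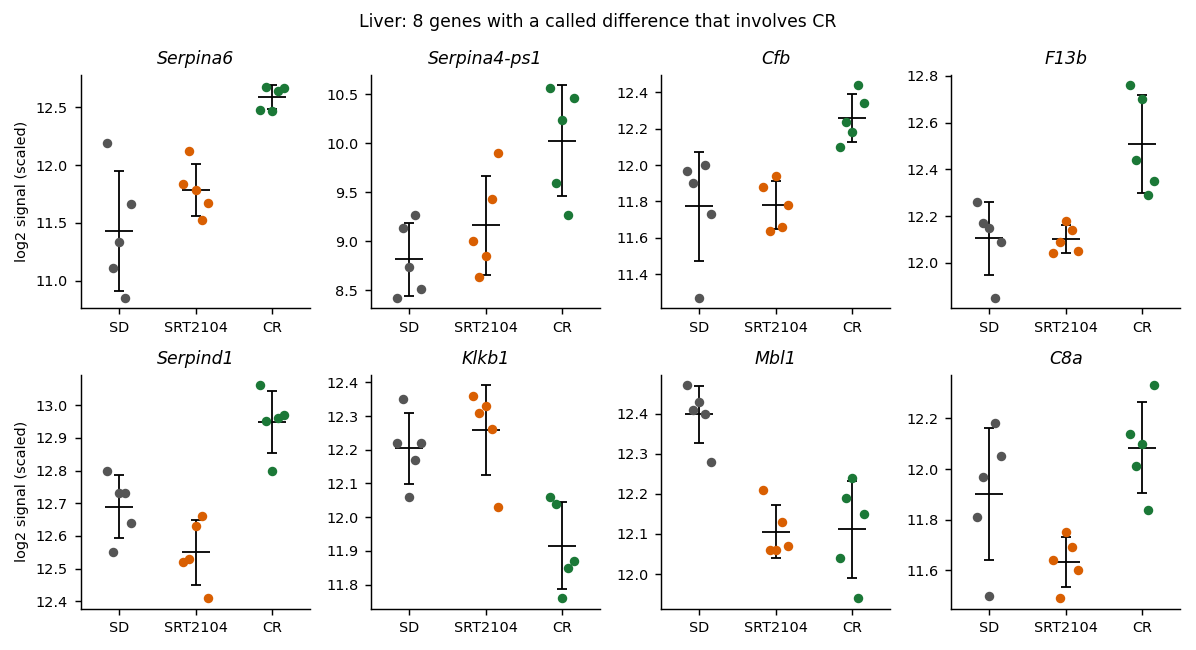
Log2 signal (y axis) of 8 member genes on each liver array, by diet, with a bar for the mean and whiskers for the SD of 5 arrays. The CR livers lie above all SD and SRT2104 livers for Serpina6, Cfb and F13b, the SD livers lie above all others for Mbl1, and the C8a means are 11.90 on SD, 11.64 on SRT2104 and 12.08 on CR.

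In the contact system, which starts the intrinsic pathway of clotting and releases bradykinin, Klkb1 was lower on CR. It read 12.22, 12.35, 12.06, 12.17 and 12.22 on SD, 12.36, 12.31, 12.33, 12.26 and 12.03 on SRT2104, and 12.06, 12.04, 11.76, 11.85 and 11.87 on CR. CR touched SD at 12.06 and overlapped SRT2104 through its lowest liver, replicate 5. CR lay at -0.29 ± 0.08 from SD (adjusted p = 0.0154), and SRT2104 lay 0.34 ± 0.08 above CR (adjusted p = 0.00533). F11, the factor XI that shares its ancestry with prekallikrein, had a difference of -0.39 ± 0.15 between CR and SD that did not pass (adjusted p = 0.0655), and F12, the factor that starts the contact reaction, passed in no comparison.

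Outside the contact system and the serpins, the factor XIII carrier gene was the 1 named coagulation gene called in liver on its brightest probe. F13b read 12.26, 12.17, 12.15, 11.85 and 12.09 on SD, 12.04, 12.09, 12.18, 12.14 and 12.05 on SRT2104, and 12.76, 12.44, 12.70, 12.29 and 12.35 on CR. All CR livers were above all others, by 0.40 ± 0.10 against SD (adjusted p = 0.00537), with SRT2104 at -0.41 ± 0.10 from CR (adjusted p = 0.0046). The 5 vitamin K dependent and common pathway factors F2, F5, F7, F9 and F10 lay between -0.13 and 0.19 for CR against SD and none passed, and neither did the anticoagulants Proc and Pros1 (protein C and protein S), Plg (plasminogen) or Vtn.

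Of the thrombin inhibitors, Serpind1 was called, while the probes of Serpinc1 disagreed. Serpind1 read 12.80, 12.55, 12.73, 12.73 and 12.64 on SD, 12.52, 12.53, 12.63, 12.66 and 12.41 on SRT2104, and 13.06, 12.95, 12.80, 12.96 and 12.97 on CR. CR was above SRT2104 in every liver, and touched SD at 12.80. It exceeded SD by 0.26 ± 0.07 (adjusted p = 0.0136), and SRT2104 lay at -0.40 ± 0.07 from CR (adjusted p = 0.000655). Serpinc1, which is antithrombin, was not called on its brightest probe, at -0.05 ± 0.12 for CR against SD, while its dimmer kept probe gave 0.63 ± 0.17 (adjusted p = 0.0104) and -1.07 ± 0.17 for SRT2104 against CR (adjusted p = 0.000224). These signs are those of Serpind1, and with the mean of its kept probes Serpinc1 was called in both comparisons. Whether the inhibitors differ is not settled by these probes. The kept probes of a gene disagreed in their call for 4 of the 15 members with more than 1 of them for CR against SD (C9, Kng1, Serpina1b and Serpinc1), for 1 (Kng1) for SRT2104 against SD and for 8 for SRT2104 against CR. Those 8 were Masp2, C6, C9, Kng1, Plg, Serpina12, Serpina1a and Serpinc1. For Plg, a dimmer probe gave -0.41 ± 0.12 in that comparison (adjusted p = 0.0182). The plasmin inhibitor Serpinf2, the protein Z dependent inhibitor Serpina10 and the complement C1 inhibitor Serping1 passed in no liver comparison.

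Serpina3n, the mouse relative of alpha-1-antichymotrypsin, spread widely on SD. It read 13.30, 15.04, 14.14, 14.71 and 13.91 on SD, 14.21, 13.49, 13.81, 13.76 and 13.75 on SRT2104, and 13.84, 13.10, 13.67, 13.56 and 13.53 on CR. The lowest SD liver, replicate 1, lay below most CR livers, and the CR difference was -0.68 ± 0.24 (adjusted p = 0.0464). It was called with only 4 of the 15 liver arrays left out in turn. A list of 17 acute phase genes was read beside it. Of 15 tested for CR against SD, 4 were lower, among them Lcn2 at -3.66 ± 0.77 and Saa1 at -2.22 ± 0.62, and 1 was higher. Of all genes tested, 13.6% were lower and 14.0% higher. The mean level of the list was 10.27 in SD replicate 1 against 11.05 to 11.92 in the other SD livers and 10.15 to 10.76 on CR. The part of this acute phase level in the Serpina3n difference was not tested. Serpina3b, the other probed gene of this subfamily, was detected on no liver array.

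SRT2104 was compared directly with CR to ask where the compound and the restricted diet part. Of the 51 members 13 passed (25.5%), against 28.2% of all genes, with 6 higher on SRT2104 (13.6% of all genes) and 7 lower (14.7%). Beside the genes above, this comparison added Serpina12, which encodes the adipokine vaspin. Serpina12 read 12.50, 13.27, 13.53, 12.84 and 12.83 on SD, 13.68, 13.24, 13.23, 13.68 and 13.41 on SRT2104, and 13.12, 12.13, 13.07, 12.87 and 12.41 on CR. The SRT2104 livers lay above all CR livers, by 0.73 ± 0.20 (adjusted p = 0.0119), and SD overlapped both. The dimmer kept probe of Serpina12 gave 0.14 ± 0.13 and was not called.

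The probes assigned to the alpha-1-antitrypsin copies divided in this comparison, though they may not tell the copies apart. Serpina1a was lower on SRT2104 (14.09, 13.90, 14.18, 14.27 and 14.29) than on CR (14.46, 14.34, 14.62, 14.66 and 14.64) by 0.40 ± 0.13 (-0.40, adjusted p = 0.0273), without overlap. The dimmer kept probe of Serpina1a gave -0.27 ± 0.13 and was not called (adjusted p = 0.125), nor was the mean of its probes. Serpina1e was higher on SRT2104 (15.83, 15.70, 15.99, 16.00 and 15.47) than on CR (15.59, 15.03, 15.51, 14.20 and 14.73), with 1 SRT2104 liver inside the CR range, by 0.79 ± 0.26 (adjusted p = 0.03). Both calls depended on single arrays, Serpina1a being lost without SRT2104 replicate 1 or 2 or CR replicate 3, 4 or 5 (adjusted p up to 0.0764) and Serpina1e without SRT2104 replicate 1, 3 or 4 or CR replicate 2, 4 or 5 (up to 0.0852). Against SD, Serpina1a was higher on CR by 0.37 ± 0.13 (adjusted p = 0.0377), a call that held with 7 of the 15 arrays left out in turn. Serpina1f was detected on no liver array.

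These genes are neighbours. RefSeq orders the clade A serpins of chromosome 12 as Serpina10, Serpina6, Serpina1f, Serpina1b, Serpina1d, Serpina1a, Serpina1c, Serpina1e, Serpina11, Serpina9, Serpina12, Serpina4-ps1, Serpina5, Serpina3b and Serpina3n among the 15 probed, of which 11 were kept in liver. Serpina12 lay higher on SRT2104 than on CR, and Serpina4-ps1, next to it in this order, lay lower, while the adjacent Serpina1b and Serpina1d had differences of like sign in each of the liver comparisons.

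SRT2104 against SD in liver asked for the effect of the compound alone. Altogether 5 of 51 members passed (9.8%), against 3.33% of all genes. Mbl1 was lower, as given above, where 1.79% of all genes were lower, and 4 were higher, where 1.54% of all genes were higher. These were Kng1, the precursor of bradykinin, and the alpha-1-antitrypsin genes Serpina1b, Serpina1c and Serpina1d, and the probes of all 4 lay near the top of the signal scale.

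The raw signals of these 4 genes did not separate SRT2104 from SD. Serpina1d read 15.23, 15.58, 15.41, 15.54 and 15.12 log2 signal on SD, 15.84, 15.78, 16.11, 16.04 and 16.57 on SRT2104, and 15.80, 15.53, 15.55, 15.73 and 15.88 on CR, and its difference of 0.69 ± 0.13 had an adjusted p of 0.0104. The raw signals of the same probe ran from 44122 to 50459 on CR, from 53350 to 58862 on SD and from 53945 to 60182 on SRT2104. For this probe, the SD and SRT2104 arrays thus overlapped almost entirely before scaling. The SRT2104 arrays were dimmer as a whole, however. The median raw signal of all kept probes was 350.7 to 479.7 per array on SRT2104 and 469.8 to 603.2 on SD. Raw signals alone therefore cannot decide whether a gene differs between these diets. The median raw signal on SRT2104 was above that on SD for Serpina1d (57242 against 56104) and below it for Kng1 (58770 against 60343), Serpina1b (54269 against 56126) and Serpina1c (56833 against 60365). The brightest probe of any gene read 54303 to 56308 on the CR arrays, 60610 to 63600 on SD and 58000 to 64700 on SRT2104. Differences of Kng1, Serpina1b and Serpina1c were 0.59 ± 0.12 (adjusted p = 0.0129), 0.64 ± 0.13 (0.0147) and 0.60 ± 0.13 (0.019). With quantile normalization they were -0.01, 0.08 and -0.02, and Serpina1d was at 0.13, with none called. Over the 25 liver genes whose brightest probe exceeded 75% of the array maximum, 18 were called higher on SRT2104. The median difference over the 25 was 0.54, against 0.00 with quantile normalization or with neqc. The latter is a normal-exponential background correction for bead arrays that ends in quantile normalization. Quantile normalization gives every array the same set of values, which largely holds the brightest probes level between arrays. These settings are thus not separate checks and cannot decide whether such genes differ. Median scaling still called Serpina1b and Serpina1d higher, and the deposited scores called all 4. Over the 11 other settings tried, the lowest differences were 0.08 for Serpina1b and 0.13 for Serpina1d, but -0.01 for Kng1 and -0.02 for Serpina1c. Whether these 4 genes differ is therefore not settled by these arrays. Without genes near the top of the scale Mbl1 was the 1 member called.

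**Figure D3:**
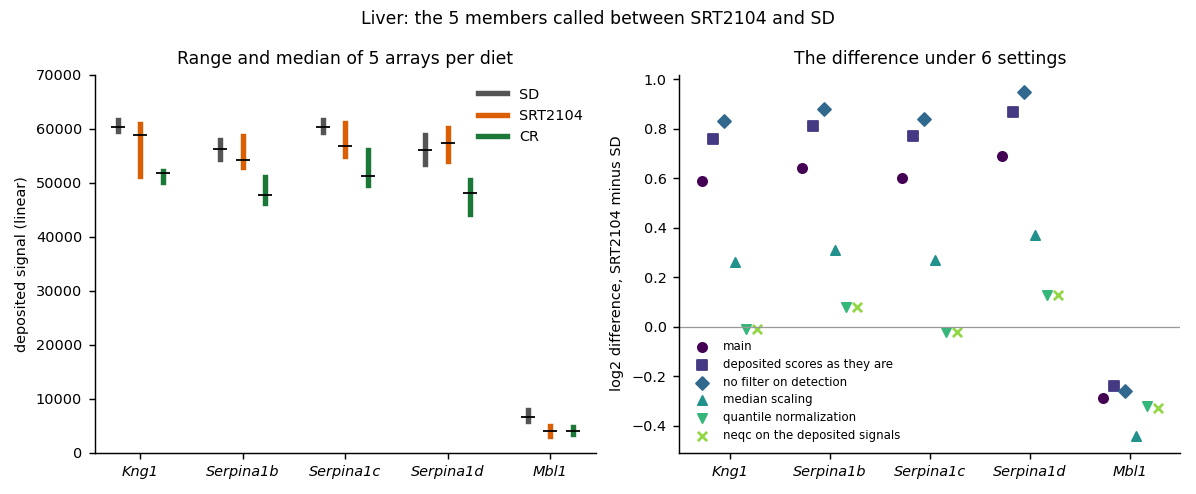
Deposited linear signal (left, y axis from 0; bars span the lowest to highest of 5 arrays per diet and ticks mark the median) and log2 difference of SRT2104 minus SD under 6 settings (right) for the 5 members called in that comparison. Kng1 moves from 0.59 to -0.01 with quantile normalization, while Mbl1 stays below 0 under all 6 settings but is not called with neqc or with the deposited scores.

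The same holds for the bright probes of members on CR. Kng1 was called higher on CR than SD by 0.34 ± 0.12 (adjusted p = 0.0403) and Serpina1b by 0.36 ± 0.13 (adjusted p = 0.0488), and with quantile normalization the differences were -0.01 and 0.07. The dimmest kept Kng1 probe, far from the top of the scale, was also called higher on CR, at 0.48 ± 0.11 (adjusted p = 0.00384). It gave -0.53 ± 0.11 for SRT2104 against CR (adjusted p = 0.00185) and -0.05 ± 0.11 for SRT2104 against SD, the latter not called. The middle Kng1 probe gave 0.24 ± 0.11 for CR against SD and was not called (adjusted p = 0.102). The call of Serpina1d for SRT2104 over CR, 0.37 ± 0.13 (adjusted p = 0.0455), was likewise not made with quantile normalization. The hepatocyte marker list, whose genes are also bright, averaged 14.07 to 14.34 on CR, 13.69 to 14.02 on SD and 14.07 to 14.57 on SRT2104, and its part in these differences was not tested.

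Genes of the same pathways outside the 84 differed by list in liver. On CR, called complement and coagulation genes went both ways, while the called protease inhibitors were all higher. Their counts stand beside 14.0% of all genes higher and 13.6% lower for CR against SD. For SRT2104 against SD these shares were 1.54% and 1.79%. For CR against SD, 17 other complement genes included 3 higher, Cfhr2 (a factor H related gene) at 0.62 ± 0.14, Colec10 (a collectin) at 0.32 ± 0.08 and C1qtnf1 at 0.27 ± 0.07, and 3 lower, which were the C1q chains C1qa at -0.23 ± 0.08, C1qb at -0.44 ± 0.12 and C1qc at -0.42 ± 0.11. C1q is made by macrophages, and the list of macrophage and Kupffer cell markers holds these 3 genes. Of its 6 genes tested, 4 were lower on CR, the fourth being Clec4f, a Kupffer cell lectin, with a median of -0.27. The list averaged 8.64 to 9.17 on SD and 8.57 to 8.92 on CR, with overlap, and its part in the C1q differences was not tested. Of 18 other coagulation genes, 5 were higher on CR, among them both cargo receptors of factors V and VIII, Lman1 at 0.30 ± 0.09 and Mcfd2 at 0.32 ± 0.09, and 2 were lower, the plasminogen-binding pair Anxa2 at -0.63 ± 0.18 and S100a10 at -0.74 ± 0.21. Of 12 other plasma protease inhibitors 5 were higher: Itih2, an inter-alpha-trypsin inhibitor chain, at 0.51 ± 0.12, Fetub, which is fetuin-B, at 0.43 ± 0.09, and Ahsg, Ambp and Mug1, whose mean levels on CR of 15.71, 15.80 and 15.22 lie near those of the members at the top of the scale. For SRT2104 against SD, 0, 1 and 2 genes of these 3 lists passed, all of them higher: Kng2, the second kininogen gene, at 0.37 ± 0.09, and Ahsg and Ambp, whose mean levels on SRT2104 of 15.88 and 15.93 are like those of the members near the top of the scale.

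Muscle held few of these transcripts. Of the 83 probed genes 16 were kept, 8 named genes and 8 serpins, and 10 of the 16 were detected on all 15 arrays. The brightest were Serpinb6a, an intracellular clade B serpin, at a mean of 12.99, Serpinf1, which encodes pigment epithelium-derived factor, at 11.19 and Serping1 at 10.70. The other 13 were dim, from 7.35 for Cfb to 8.70 for Vtn: C2, C4b, C8b, C8g, Cfb, Kng1, Pros1, Vtn, Serpina1b, Serpina1c, Serpina1d, Serpina3n and Serpinh1. Serpinb6a had means of 12.99 on all 3 diets. Over all 15 muscle arrays, 0 of the 16 passed in limma in any of the comparisons, against 9.31% of all genes for SRT2104 against SD, 0.426% for CR against SD and 9.98% for SRT2104 against CR. The array of CR replicate 3 lay apart from its group, with a median correlation of 0.8111 with the other CR arrays where the other 14 muscle arrays had 0.9032 to 0.9916 with their own groups. Without it, 1867 of 7752 genes were called for SRT2104 against SD in place of 722, and 1446 in place of 774 for SRT2104 against CR, while the members called stayed at 0. At an unadjusted p under 0.05 the counts were 1, 1 and 2 of 16, and limma on neqc or quantile normalized signals called 0 in each comparison too. The difference of the diet effects between liver and muscle, tested as an interaction, was called for 0 of 16 members for SRT2104 (9.15% of all genes) and 0 of 16 for CR (4.93%), with 0 and 0 at an unadjusted p under 0.05.

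The muscle array of SRT2104 replicate 3 stood apart in these genes. Of the 51 members kept in liver, 48 were highest on this array among the 15 muscle arrays, by a median of 3.20 log2 units over the median of the other 14. Serpina1b was 7.38 above it on the probe that was brightest in liver, Kng1 read 13.93 against 7.06 to 7.71 on the other SRT2104 arrays, and C8g read 11.96 against 7.97 to 8.13. The excess followed the level in liver, with a median of 3.85 for the 36 genes at or above 12 log2 signal in liver and 1.68 for the 14 between 9 and 12, and r was 0.87 across the 51 genes, which share their arrays and are not independent. Serpinb6a, dim in liver, was 0.90 below the other arrays (-0.90). The 14 hepatocyte markers exceeded the median of the other arrays by a median of 6.16, and the muscle fibre markers there averaged 14.02.

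**Figure D4:**
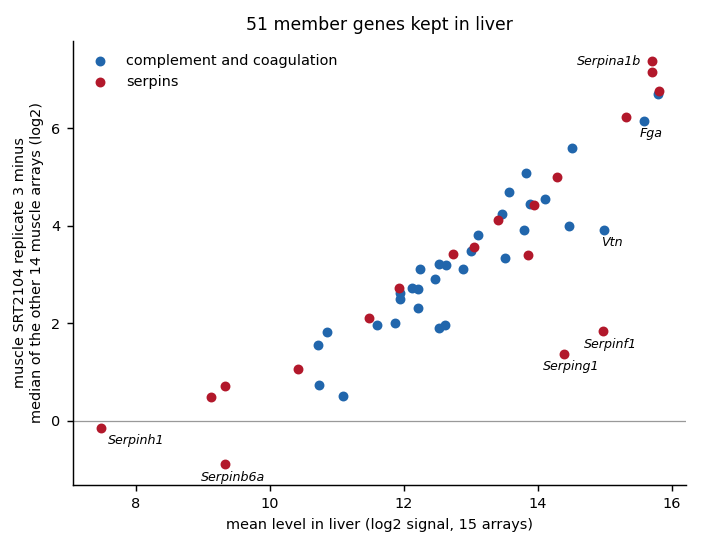
Level on the muscle array of SRT2104 replicate 3 minus the median of the other 14 muscle arrays (y axis, log2) against the mean level in liver (x axis, log2 signal, 15 arrays) for 51 member genes, with r at 0.87 across genes. The excess reaches 7.38 for Serpina1b, and Serpinf1 and Serping1, both kept in muscle, lie below the other bright genes.

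Without that array, the C1 inhibitor and Serpinf1 were lower in SRT2104 muscle. Serping1 read 11.03, 10.83, 11.06, 10.84 and 10.90 on SD, 9.90, 9.92, 12.18, 9.84 and 10.09 on SRT2104 with replicate 3 as the highest, and 11.12, 11.31, 10.24, 10.81 and 10.48 on CR. The other 4 SRT2104 muscles were below all SD and CR muscles. The difference from SD was -0.55 ± 0.37 with all arrays (adjusted p = 0.365) and -1.0 ± 0.18 without replicate 3 (adjusted p = 0.00331), and that from CR was -0.41 ± 0.37 and -0.86 ± 0.18 (adjusted p = 0.53 and 0.00715).

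Serpinf1 behaved alike. It read 11.20, 11.04, 11.32, 11.67 and 11.14 on SD, 10.29, 10.30, 12.85, 10.68 and 10.41 on SRT2104, and 11, 11.71, 12.26, 10.97 and 10.94 on CR, so that 4 SRT2104 muscles were below all others. The difference from SD was -0.37 ± 0.42 with all arrays (adjusted p = 0.612) and -0.85 ± 0.24 without replicate 3 (adjusted p = 0.033). Without that array 4 of 16 members were called for SRT2104 against SD, where 11.4% of all genes were called, the others being Serpina1c and Serpina1d. The latter pair was detected on none of the SD muscle arrays and was kept through 4 SRT2104 and 3 CR arrays, so these calls rest on SD values at background and no size is given for them. The hepatocyte markers averaged 7.09 to 7.71 on these 4 SRT2104 arrays and 6.85 to 7.23 on SD, and their part in these calls was not tested. Against CR 4 of 16 were called, where 13.2% of all genes were, with the complement gene C2 at -0.94 ± 0.26 and Vtn at 0.45 ± 0.13 beside these 2. On 12 muscle arrays, with SD replicate 1 and CR replicate 3 left out too, the effect of SRT2104 differed between liver and muscle for Serping1 by 1.20 ± 0.17 and for Serpinf1 by 1.11 ± 0.19 (adjusted p = 1.02e-05 and 9.15e-05), 2 of 16 members where 25.1% of all genes were called.

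**Figure D5:**
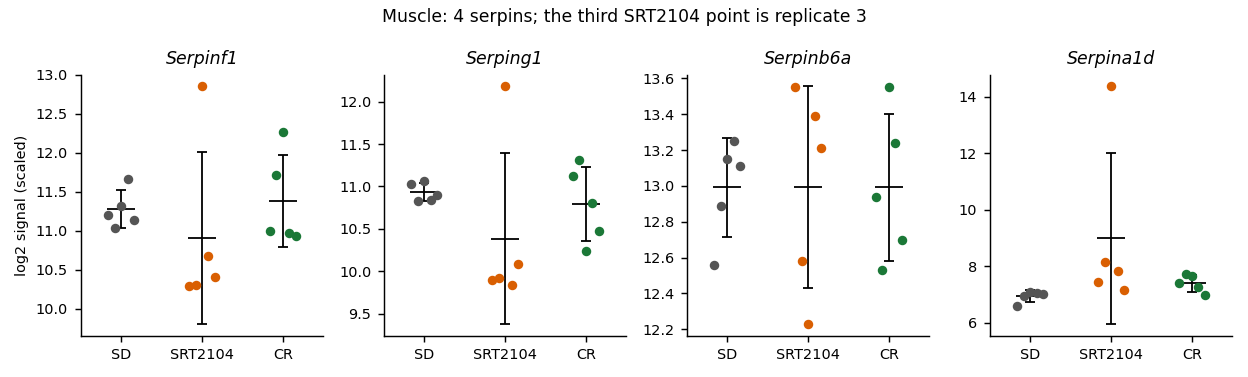
Log2 signal (y axis) of 4 serpins on each muscle array, by diet, with a bar for the mean and whiskers for the SD of 5 arrays. The third SRT2104 point, replicate 3, is at 12.85 for Serpinf1 and 12.18 for Serping1, while the other 4 lie below all SD and CR points in both genes.

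Markers of other cells were read beside these muscle values, and some were lower on SRT2104. The calls below are for all 15 arrays, where 9.31% of all genes were called for SRT2104 against SD. The 6 fibroblast markers averaged 8.45 to 8.73 on SRT2104, 9.08 to 9.57 on SD and 9.0 to 9.46 on CR, without overlap, and of the 6 tested for SRT2104 against SD, Col1a1 and Lum were called lower. The 6 adipocyte markers averaged 7.15 to 7.25 on SRT2104, 7.48 to 7.80 on SD and 7.44 to 9.64 on CR, again without overlap between SRT2104 and the others, with a median difference from SD of -1.31 over the 3 tested, none called. The macrophage markers averaged 7.19 to 7.59 on SRT2104 and 7.34 to 7.60 on SD, with overlap, and C1qb and C1qc of the 4 tested were called lower. Both are complement genes too and are given again below, so they are not a separate sign of macrophages. The 7 endothelium markers tested had a median difference from SD of 0.10, with none called. Other pathway genes of muscle that were called lower on SRT2104 than SD were C1qb at -0.74 ± 0.17, C1qc at -1.0 ± 0.19, Cd55 at -0.62 ± 0.11, F13a1, the catalytic subunit of factor XIII, at -1.33 ± 0.17 and Thbd, thrombomodulin, at -0.54 ± 0.12, all without overlap and with all 15 arrays. The part of the fibroblast, adipocyte and macrophage levels in the differences of Serping1 and Serpinf1 was not tested. Serpinh1, the collagen chaperone of clade H, differed by 0.30 ± 0.09 between CR and SD in muscle and did not pass (adjusted p = 0.219).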

How the data were processed

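RNA of both tissues was hybridised to 30 arrays of the Illumina MouseRef-8 v2 type. The authors extracted the deposited signal intensity values and the detection p-value of each probe with GenomeStudio, for which the submitters' notes give version 1.6.0. Each deposited score is a z-score, taken on the natural log scale over the probes of an array. Score columns name the replicate, whereas signal columns name the tissue and diet only, so signals were used by group. No label states that liver and muscle arrays of 1 number came from 1 mouse, or whether replicates were extracted together, and p-values measure the spread between these arrays, whose number limits the precision.

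Probes detected at p under 0.02 on at least 5 of the 15 arrays per tissue entered the analysis, 11065 for liver and 10792 for muscle. The scores of each array were rescaled to mean 0 and SD 1 over these probes, then stretched to the average array SD of the tissue (1.19 and 1.03 in natural log units) and written in log2 units, which makes all arrays alike in spread and moves the brightest probes most. A gene was represented by its brightest kept probe. Symbols came from the platform annotation, which names 1 gene for 23978 probes and leaves 1719 without. Diets were compared with limma (version 3.58.1, R 4.3.3) over the 15 arrays of a tissue, interactions over all 30, with Benjamini-Hochberg adjustment over all kept probes and a threshold of 0.05. The fit was tested on simulated data. Promoter sequences are those of RefSeq (GRCm38.p6), which held 69 of the 83 probed genes.

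Genes named are members called in a comparison, the brightest of each role, the Serpina1 and Serpina3 genes and those kept in muscle. A few further members are named by role where none passed, which was decided after their values were seen. Members, lists and tests were chosen with earlier results of these data known. Alternatives were other diets in the fit, the replicate number as a block, array weights, the t-test of the study's methods, deposited scores as they are, neqc, quantile and median scaling, other detection filters, the mean of the probes, 12 muscle arrays and each array left out.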

Additional observations from a re-analysis of the deposited data

Results flagged for a closer look

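In 18 of 141 groups of 5 arrays, 1 array stood far from the other 4 by the spacing of the values, where chance alone flags about 1 group in 20. Of these, 13 were the muscle array of SRT2104 replicate 3 as the highest of its group. It read 9.81 for C2 (7.36 to 7.59 on the other 4), 11.48 for C4b (7.71 to 8.15), 9.56 for C8b (7.54 to 7.71), 11.96 for C8g and 9.74 for Cfb (7.07 to 7.16). It read 13.93 for Kng1, 15.27 for Serpina1b (7.22 to 8.78), 13.97 for Serpina1c, 14.37 for Serpina1d and 11.08 for Serpina3n (7.40 to 7.64). It also read 12.85 for Serpinf1, 12.18 for Serping1 and 12.33 for Vtn (8.30 to 8.83).

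The liver groups held 5 such values. CR replicate 2 was lowest for Fga at 15.26 (15.56 to 15.67 on the other 4) and for Serpina1b at 15.61 (15.73 to 15.78). SRT2104 replicate 5 was lowest for Klkb1 at 12.03 (12.26 to 12.36), and SRT2104 replicate 4 for Serpinb6a at 9.11 (9.38 to 9.44). SD replicate 2 was highest for Pros1 at 11.53 (10.84 to 10.99). Over all arrays, 0 of the 16 members tested were called for a difference between the tissues in the response to either diet. On 12 muscle arrays 2 were called for SRT2104, as given above. A difference that was not called can still exist, since the SE reached 1.17 for Serpina1b with all arrays.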

How the results depend on the processing

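Of the 30 called liver differences, 11 were called under all 11 alternatives and with each of 15 arrays left out: Klkb1, Mbl1, Serpina4-ps1 and Serpina6 for CR against SD, and C8a, Cfb, F13b, Klkb1, Serpina12, Serpina6 and Serpind1 for SRT2104 against CR. The sign turned in 9 cases. For SRT2104 against SD these were Kng1 at -0.01 with neqc and -0.01 with quantile normalization, and Serpina1c at -0.02 with each. For CR against SD they were Kng1 at -0.01 with each of the same, Fga at -0.19 with quantile normalization and Serpinc1 at 0.29 with the mean of its probes, and for SRT2104 against CR Serpinc1 at -0.48 with that mean. The brightest and the dimmer Serpinc1 probes differ as given above. The other causes were not tested.

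The 5 members called for SRT2104 against SD in liver became 1 with only these diets in the fit, 3 with array weights, 0 by the methods' t-test with adjusted p and 8 with unadjusted p, 0 with neqc, 1 with quantile normalization and 1 without genes near the top of the scale, which was chosen after seeing the data. Leaving out 1 array gave 3 to 6. Mbl1 was not called with only these diets in the fit, the replicate block, array weights, the adjusted t-test, the deposited scores or neqc. The 12 for CR against SD became 7 with the adjusted t-test, 7 with no filter on detection and 7 to 14 with 1 array left out. The 13 for SRT2104 against CR became 20 with the unadjusted t-test and 9 to 15 with 1 array left out. In muscle, SRT2104 against SD gave 2 with array weights, 5 on 12 arrays and 0 to 4 with 1 array left out, where 3015 and 2377 of all 7752 genes were called with the weights and on 12 arrays, against 722 on all arrays unweighted, and CR against SD gave 5 with the unadjusted t-test. SRT2104 against CR in muscle gave 3 with array weights, 1 with the unadjusted t-test, 4 on 12 arrays and 0 to 4 with 1 array left out, where 2535 and 2588 genes were called with the weights and on 12 arrays, against 774. The interaction for SRT2104 gave 2 on 12 arrays.

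Residuals of same-numbered arrays correlated from -0.251 to 0.306 in liver and from -0.135 to 0.222 in muscle. Differently numbered arrays were not compared, so these values do not show whether the arrays pair. With the replicate number as a block, the counts in liver were 4 for SRT2104 against SD, 11 for CR against SD and 13 for SRT2104 against CR, and in muscle and for the interactions they were 0. The block lost Mbl1 for SRT2104 against SD, lost Serpina1b and Serpina3n and added Mbl2 for CR against SD, and lost Serpina1d and added Serpinf1 for SRT2104 against CR. Probes near the top of the scale and probes at the detection limit bound what these arrays can show.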
